A study of Mus musculus with 17 samples.

Results

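The kidney makes concentrated urine with a small set of membrane proteins, and 10 of their genes were followed here, of 22558 genes in the deposited expression table. They were chosen by gene symbol: the water channels Aqp1, Aqp2, Aqp3, Aqp4, Aqp6, Aqp7 and Aqp11, the vasopressin receptor Avpr2, and the urea transporters Slc14a1 and Slc14a2. All 10 were found in the table, and all 10 passed the filter on low counts in each comparison. RNA was sequenced from the whole kidneys of 17 male mice, 1 library per mouse. The Ctrl group held 5 C57BL/6 mice (wild type) and the Case group 6 db/db mice of the strain BKS.Cg-Dock7m +/+ Leprdb/J, which lack a working leptin receptor and become obese and diabetic. In the Dapa group 6 db/db mice of the same strain took dapagliflozin by gavage for 6 weeks (1 mg/kg daily), a drug that blocks glucose reuptake by SGLT2 in the proximal tubule. Ctrl and Case mice received saline by gavage over the same time, and all mice were 8 weeks old at the start. Because Ctrl mice are C57BL/6 and db/db mice are on another background, diabetes and strain cannot be told apart in either comparison with Ctrl. In whole kidney RNA, fewer cells of a type and less RNA per cell cannot be told apart either.

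Water leaves the tubule through aquaporins, which let it follow the osmotic gradient set up by salt and urea in the medulla. In the collecting duct, vasopressin binds its V2 receptor on principal cells, raises cAMP, and brings AQP2 into the apical membrane, while AQP3 and AQP4 let water leave through the basolateral side. Urea transporters of the inner medullary collecting duct, the descending thin limb and the vasa recta keep urea in the medulla. Diabetes with glucose in the urine, and SGLT2 inhibition, both add an osmotic load to the tubule, and the comparisons ask how these genes stood under each.

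Aqp6 and Aqp2 were higher in Case than in Ctrl, Aqp6 2.59-fold and Aqp2 1.82-fold in mean FPKM (counts scaled to gene length and library total). Between Dapa and Case no member passed the test. Dapa mice had higher Aqp2, Aqp6, Slc14a1 and Slc14a2 and lower Aqp7 and Aqp11 than Ctrl mice. Several of these calls depended on which libraries entered the fit, and those values stand beside each result.

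Aqp2 and Aqp6 are neighbours. In mm10 coordinates Aqp2 lies at chr15:99579056-99584545 and Aqp6 at chr15:99601400-99605477, both on the plus strand, 16854 bases apart with Aqp5 between them. The 250 bases before the RefSeq start of each (GRCm38.p6, plus strand) are shown because these were the members called in both comparisons with Ctrl, with searched motifs in capitals. The RefSeq promoter table used here covered 7 of the 10 members, and the RefSeq start of Aqp6 lies 200 bases before the start of the deposited gene. The Aqp2 stretch spans chr15:99578806-99579055 and the Aqp6 stretch chr15:99600950-99601199.
Aqp2: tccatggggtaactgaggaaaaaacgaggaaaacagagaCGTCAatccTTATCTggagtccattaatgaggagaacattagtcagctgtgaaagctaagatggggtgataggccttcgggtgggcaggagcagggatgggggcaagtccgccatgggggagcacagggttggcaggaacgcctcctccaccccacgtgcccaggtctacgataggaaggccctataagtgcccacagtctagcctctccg
Aqp6: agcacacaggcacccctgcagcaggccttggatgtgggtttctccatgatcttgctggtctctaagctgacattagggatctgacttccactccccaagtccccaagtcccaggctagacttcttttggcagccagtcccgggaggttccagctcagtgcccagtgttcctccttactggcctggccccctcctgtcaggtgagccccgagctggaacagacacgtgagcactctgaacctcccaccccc

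The search covered both strands of the 250-base window before each start. The letters were the cAMP response core TGACG, its full site TGACGTCA and the GATA site AGATAA. The TATA box TATAAA and the core TGGAAA of the tonicity element were also searched. The full site holds the core. The Aqp2 window had the cAMP response core on the minus strand (read CGTCA) from base -211 and a GATA site on the minus strand (read TTATCT) from base -202, and the Aqp6 window had none of these letters. Of 32851 promoters, none from chromosome 18, 17.77% held TGACG, 9.99% AGATAA, 12.37% TATAAA, 18.58% TGGAAA and 1.55% the full site. Among the other members searched, Aqp7 had AGATAA from base -132 and TGGAAA from base -234. Aqp3 had TATAAA from base -29 and Avpr2 had it on the minus strand from base -45. These are matches of letters and were not tested as binding sites.

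The libraries held 13039535 to 17779635 counts, with medians of 16403995 in Ctrl, 15826612 in Case and 14514719 in Dapa. Mitochondrial genes took 17.9% to 27.6% of counts, with medians of 19.3% in Ctrl, 22.4% in Case and 23.9% in Dapa, and the part of either in the members' values was not tested. Kidney markers were present in every mouse, and the summed FPKM of 8 proximal tubule markers was 1573 or more in each. In 7 libraries (Ctrl 1, 3 and 4, Case 1, and Dapa 10, 11 and 12) the ratio of count to FPKM of 3 genes with split entries, scaled to library total, lay more than 1% from its median over libraries (0.970 to 1.38 times the median), while in the other 10 libraries it lay within 1% (at most 1.0013 times). The adipocyte marker Adipoq was above 0.5 FPKM in 4 libraries, Ctrl 3 with 9.83 FPKM and Dapa 7, 10 and 11 with 0.927 to 3.11 FPKM. Both sets stand apart from the rest, so calls of the members and of the genes of related pathways are also given without them. Marker calls and marker ratios are given over all mice only. A gene was called where q, the Benjamini-Hochberg adjusted p of edgeR's quasi-likelihood test over all genes tested, was under 0.05, and a DEG also had group mean FPKM values more than 2-fold apart. In Case against Ctrl 888 genes were called higher and 1007 lower, and in Dapa against Ctrl 2073 higher and 2187 lower. These counts are from the fit with TMM scaling. Upper quartile scaling gave 1060 higher and 888 lower in Case and 2461 and 1828 in Dapa against Ctrl, median ratio scaling 864 and 1040, and 2135 and 2133, and limma on log2(FPKM + 1) values 1044 and 723, and 2918 and 1488.

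The deposited FPKM values divide by gene lengths that for some genes exceed the bases their exons cover, so levels between genes were compared per kilobase of exon union. On that scale Aqp1 was the most abundant member in Ctrl at 257 ± 32.0 FPKM (SD, n = 5). Aqp3 followed at 40.5 ± 3.42 FPKM and Aqp2 at 34.6 ± 7.90 FPKM, 2 levels within their spread of each other. Aqp6 (8.97 ± 2.93 FPKM), Aqp7 (6.49 ± 0.861 FPKM), Aqp4 (5.57 ± 3.37 FPKM), Aqp11 (5.10 ± 0.226 FPKM) and Avpr2 (3.65 ± 1.29 FPKM) followed, and down to Aqp11 each level lay within the spread of its neighbour, while Avpr2 lay below Aqp11 by more than either SD. The urea transporters were lowest, with Slc14a2 at 0.549 ± 0.647 FPKM and Slc14a1 at 0.313 ± 0.297 FPKM. In Dapa the order began with Aqp1 (215 ± 51.1 FPKM), Aqp2 (101 ± 60.4 FPKM) and Aqp3 (47.2 ± 7.81 FPKM), and Aqp6 stood at 24.9 ± 6.70 FPKM. All values from here on are FPKM as deposited, compared within a gene.

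**Figure D1:**
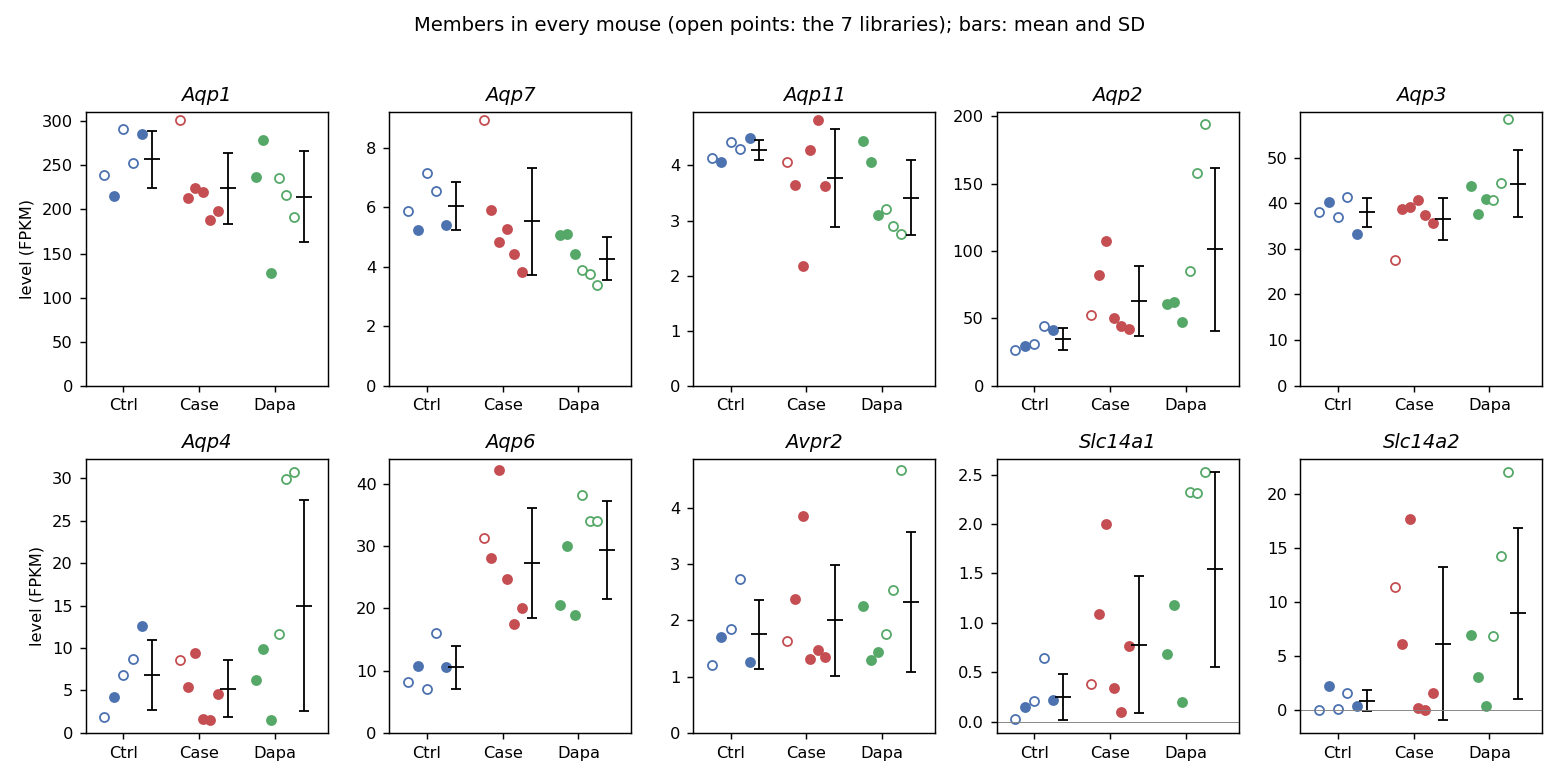
Level of the 10 members in every mouse (FPKM as deposited, 1 panel per gene, each with its own axis from 0), for Ctrl (blue, n = 5), Case (red, n = 6) and Dapa (green, n = 6). Open points are the 7 libraries named in the text, and the black marks are mean and SD. Aqp6 separates Ctrl (7.11 to 16.0 FPKM) from both db/db groups (17.5 FPKM or more), while Slc14a2 ranges from 0 to 17.6 FPKM within Case alone.

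Aqp2 is the vasopressin-regulated channel of principal cells. Its level in the 5 Ctrl mice was 26.3, 29.6, 31.2, 44.3 and 41.7 FPKM, in the order of their numbers. In Case the lowest mouse had 42.1, the median was 51.4 and the highest mouse had 107 FPKM, so the groups overlapped only where the lowest Case mice met the highest Ctrl mice. In Dapa the lowest mouse had 47.1, the median was 73.6 and the highest mouse had 195 FPKM, and every Dapa mouse lay above every Ctrl mouse. The log2 fold change was 0.78 (SE 0.22, q = 0.0395) in Case against Ctrl and 1.44 (SE 0.34, q = 0.00754) in Dapa against Ctrl, both called higher, and only the second was a DEG. Between Dapa and Case it was 0.66 (SE 0.34, q = 0.414), and in the other 10 libraries alone -0.19 (q = 0.973). These comparisons share mice and are not independent of one another.

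The Case call of Aqp2 was lost with a term for the 7 libraries (log2 fold change 0.71, q = 0.116), in the other 10 libraries alone (0.78, q = 0.306), without the Adipoq library Ctrl 3 (0.74, q = 0.0933), and with all 3 groups in one fit (0.78, q = 0.118). It was also lost without Ctrl 1, Ctrl 2, Ctrl 5, Case 2 or Case 3, with log2 fold changes of 0.58 to 0.83 and q up to 0.0951. Dapa mice 10, 11 and 12, all among the 7 libraries, had 84.9 to 195 FPKM, and Dapa mice 7, 8 and 9 had 47.1 to 62.2 FPKM. In the other 10 libraries alone the Dapa against Ctrl log2 fold change of Aqp2 was 0.59 (q = 0.144), and without the 4 Adipoq libraries it was 1.42 (q = 0.0591).

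Aqp6 encodes an intracellular channel of acid-secreting intercalated cells. Ctrl mice had 8.19, 10.8, 7.11, 16.0 and 10.6 FPKM. Case mice ran from 17.5 to 42.2 FPKM with a median of 26.4, and Dapa mice from 18.9 to 38.2 FPKM with a median of 32.1. No Case or Dapa mouse overlapped a Ctrl mouse, and the 2 db/db groups overlapped almost fully. Aqp6 rose by a log2 fold change of 1.29 (SE 0.22, q = 0.00371) in Case and by 1.37 (SE 0.22, q = 0.00101) in Dapa against Ctrl, a DEG in both. Between Dapa and Case the log2 fold change was 0.09 (SE 0.21, q = 0.886). The Case and Dapa calls against Ctrl held when any 1 mouse was left out and without the 4 Adipoq libraries (q = 0.0123 and q = 0.0155). In the other 10 libraries alone the log2 fold changes were 1.22 (q = 0.0829) and 1.03 (q = 0.0614), with fewer mice in the fit.

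Aqp3, the basolateral channel of principal cells, kept a narrow range. Ctrl mice had 38.0, 40.3, 37.0, 41.5 and 33.2 FPKM. Case mice had 27.6 to 40.7 FPKM (median 38.0), and Dapa mice 37.5 to 58.4 FPKM (median 42.3). All 3 groups overlapped. None of the log2 fold changes was called: -0.14 (SE 0.10, q = 0.397) in Case against Ctrl, 0.11 (SE 0.11, q = 0.458) in Dapa against Ctrl, and 0.26 (SE 0.12, unadjusted p = 0.0441, q = 0.375) in Dapa against Case.

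Aqp4, the other basolateral channel of the collecting duct, most abundant in the inner medulla, varied widely within every group. Ctrl mice had 1.83, 4.21, 6.87, 8.67 and 12.6 FPKM, Case mice 1.49 to 9.44 FPKM (median 4.99) and Dapa mice 1.53 to 30.8 FPKM (median 10.8). Dapa 11 and 12 stood highest at 29.9 and 30.8 FPKM, and Dapa 9 was near the lowest mice of the other groups. The log2 fold change of Case against Ctrl was -0.47 (SE 0.51, q = 0.586), not called. That of Dapa against Case was 1.495 (SE 0.61, unadjusted p = 0.0287, q = 0.338) and that of Dapa against Ctrl was 1.02 (SE 0.62, q = 0.234), neither called. The former was 0.65 (q = 0.688) with a term for the 7 libraries and 0.36 (q = 0.981) in the other 10 libraries alone. Within the 7 libraries alone the Dapa against Ctrl value was 1.94 (q = 0.0340), and in the other 10 alone it was -0.61 (q = 0.657). Aqp4 overlaps an antisense gene, and whether strand was used in counting is not given in the sources used here.

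Avpr2, the V2 receptor that starts the vasopressin response, was not called in any comparison. Ctrl mice had 1.20, 1.70, 1.85, 2.74 and 1.27 FPKM, Case mice 1.32 to 3.86 FPKM (median 1.56) and Dapa mice 1.29 to 4.68 FPKM (median 2.01). Its log2 fold changes were 0.10 (SE 0.28, q = 0.848) in Case against Ctrl, 0.20 (SE 0.32, q = 0.824) in Dapa against Case, and 0.30 (SE 0.31, q = 0.50) in Dapa against Ctrl. Avpr2 overlaps L1cam and Arhgap4, which lie on the opposite strand, so its counts carry the same doubt as those of Aqp4.

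Slc14a2 encodes the UT-A urea transporters of the inner medullary collecting duct and descending thin limb. Ctrl mice had 0, 2.20, 0.0706, 1.58 and 0.357 FPKM, which is 0, 122, 4, 90 and 19 counts. In Case the counts ran from 0 to 970 and the levels from 0 to 17.6 FPKM (median 3.82). In Dapa they ran from 20 to 970 counts and from 0.38 to 22.0 FPKM (median 6.88). Case 4, 5 and 6 and Dapa 9 lay within the range of Ctrl mice, and Case 3 and Dapa 12 stood highest. A count of 0 allows up to 3 counts, for counting error only, so the low mice were near the limit of what this depth detects.

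Slc14a2 was called in Dapa against Ctrl, where it rose by 3.28 on the log2 scale (SE 0.95, q = 0.0213) and was a DEG. In Case against Ctrl the log2 fold change of 2.75 (SE 1.24, unadjusted p = 0.0444, q = 0.162) was not called, and between Dapa and Case it was 0.54 (SE 0.99, q = 0.850), or -0.54 in the other 10 libraries alone. The Dapa call was lost with all 3 groups in one fit (3.29, q = 0.051), without Ctrl 5 (q = 0.0520), in the other 10 libraries alone (1.31, q = 0.533), and without the 4 Adipoq libraries (2.92, q = 0.148). In the 7 libraries alone it was 4.59 (q = 0.0153). With 1 mouse left out it ran from 2.79 (without Dapa 12) to 4.04 (without Ctrl 2), the Case against Ctrl value from 2.10 (without Case 3) to 3.505 (without Ctrl 2), and the Dapa against Case value from 0.031 (without Dapa 12) to 1.18 (without Case 3).

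Slc14a1, the UT-B urea transporter of the descending vasa recta and of red blood cells, lies 4820 bases from Slc14a2 on chromosome 18. Ctrl mice had 0.0246, 0.146, 0.214, 0.650 and 0.216 FPKM, Case mice 0.101 to 2.00 FPKM (median 0.572) and Dapa mice 0.205 to 2.53 FPKM (median 1.75). Dapa 10, 11 and 12 had 2.31 to 2.53 FPKM, above every other mouse. It rose by 2.51 on the log2 scale in Dapa against Ctrl (SE 0.66, q = 0.0143), a DEG, with 1.55 (SE 0.71, unadjusted p = 0.0477, q = 0.169) in Case against Ctrl and 0.96 (SE 0.62, q = 0.514) in Dapa against Case, where the other 10 libraries alone gave -0.31. The Dapa call was lost in the other 10 libraries alone (1.83, q = 0.217) and without the 4 Adipoq libraries (2.23, q = 0.129). With 1 mouse left out its value ran from 2.23 (without Ctrl 1) to 3.21 (without Ctrl 4), and the Case against Ctrl value from 1.04 (without Case 3) to 2.26 (without Ctrl 4).

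Markers of red blood cells, which carry UT-B, moved with the groups. Of 6 erythrocyte markers 5 were tested, and all 5 were called higher in Case against Ctrl and in Dapa against Ctrl, beside 6.09% and 14.2% of all genes called higher. Alas2, the first enzyme of heme synthesis in these cells, had the largest change in both (log2 fold changes 2.52 and 2.64). The summed markers were 18.2 to 69.6 FPKM in Ctrl, 56.7 to 437 FPKM in Case and 110 to 358 FPKM in Dapa, with 1 of the 6 at 0 in every Ctrl mouse. Their part in the Slc14a1 values was not tested.

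Aqp1 is the channel through which the proximal tubule and descending thin limb reabsorb most filtered water. Ctrl mice had 239, 215, 291, 252 and 286 FPKM, Case mice 189 to 302 FPKM (median 216) and Dapa mice 128 to 279 FPKM (median 226). Case 1 was the highest of all mice and Dapa 9 the lowest, and the groups overlapped. The log2 fold changes were -0.27 (SE 0.13, q = 0.175) in Case and -0.37 (SE 0.16, unadjusted p = 0.0343, q = 0.0917) in Dapa against Ctrl, and -0.09 (SE 0.16, q = 0.846) between Dapa and Case, none called. Without Case 1 the Case value was -0.39 (q = 0.0304), and without Dapa 8 the Dapa against Ctrl value was -0.45 (q = 0.0436).

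Aqp7, which carries glycerol as well as water in the straight proximal tubule, had 5.87, 5.23, 7.15, 6.53 and 5.4 FPKM in Ctrl mice. Case mice had 3.81 to 8.91 FPKM (median 5.05) and Dapa mice 3.38 to 5.10 FPKM (median 4.16). Every Dapa mouse lay below every Ctrl mouse, while Case mice lay on both sides of Ctrl. Aqp7 fell by 0.60 on the log2 scale (SE 0.13, q = 0.00581) in Dapa against Ctrl. In Case against Ctrl the log2 fold change was -0.21 (SE 0.19, q = 0.490) and in Dapa against Case -0.39 (SE 0.19, q = 0.401). The Dapa call was lost in the other 10 libraries alone (-0.21, q = 0.515) and without the 4 Adipoq libraries (-0.50, q = 0.0885). Of its 50-base stretches 2.93% also occur in transcripts of other genes, against at most 0.112% for the other members.

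Aqp11, a channel of the endoplasmic reticulum of proximal tubule cells, was the steadiest member in Ctrl, with 4.13, 4.06, 4.43, 4.29 and 4.5 FPKM. Case mice spread on both sides of that range, from 2.18 to 4.83 FPKM (median 3.86). Dapa mice had 2.76 to 4.45 FPKM (median 3.16) and overlapped Ctrl through their 2 highest mice. Aqp11 fell by 0.43 on the log2 scale (SE 0.12, q = 0.0183) in Dapa against Ctrl, and the log2 fold changes of -0.26 (SE 0.16, q = 0.328) in Case against Ctrl and -0.17 (SE 0.18, q = 0.715) in Dapa against Case were not called. The Dapa call was lost with all 3 groups in one fit (q = 0.058), on log2(FPKM + 1) values (q = 0.06), in the other 10 libraries alone (-0.23, q = 0.480), and without the 4 Adipoq libraries (-0.44, q = 0.0711).

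Proximal tubule markers moved in the direction of Aqp7 and Aqp11. Of 8 such markers 3 were called lower in Case and 6 in Dapa against Ctrl, beside 6.91% and 14.9% of all genes called lower, and none higher. Lrp2, the endocytic receptor megalin, had the largest change, with log2 fold changes of -0.98 in Case and -1.25 in Dapa. The summed markers were 2648 to 3064 FPKM in Ctrl, 1573 to 2882 FPKM in Case and 1700.2 to 2553 FPKM in Dapa, and no marker was at 0 in any mouse. In Dapa 10, 11 and 12, all among the 7 libraries, the sums were 1700 to 2049 FPKM, and in Dapa 7, 8 and 9 they were 2338 to 2553 FPKM. The part of these markers in the values of Aqp1, Aqp7 and Aqp11 was not tested.

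**Figure D2:**
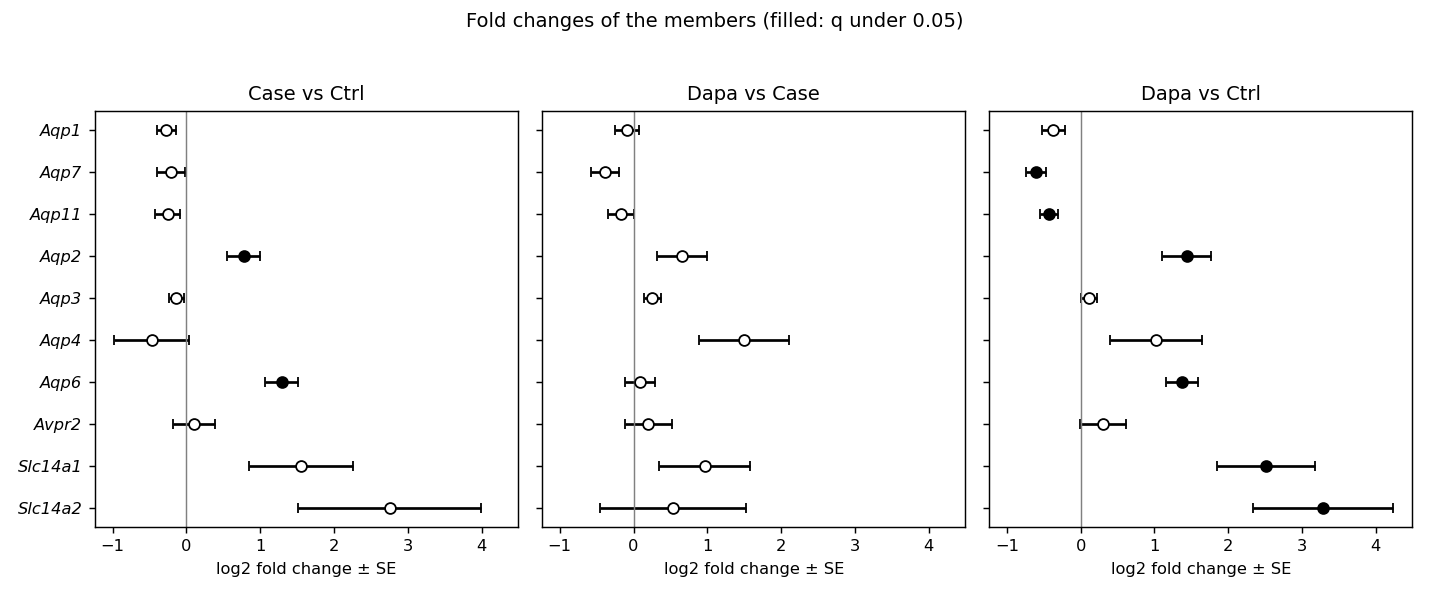
Log2 fold change and SE of each member in Case against Ctrl (left), Dapa against Case (middle) and Dapa against Ctrl (right), with filled points where q was under 0.05. Filled points are Aqp2 and Aqp6 on the left, none in the middle, and Aqp2, Aqp6, Aqp7, Aqp11, Slc14a1 and Slc14a2 on the right.

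Counted together, 2 of the 10 members were called in Case against Ctrl, both higher, beside 13.0% of all genes tested (6.09% higher and 6.91% lower). Of these Aqp6 was a DEG, beside 3.79% of all genes (2.33% in that direction), and 4 members had an unadjusted p under 0.05, beside 28.7%. In Dapa against Ctrl 6 of 10 were called, 4 higher and 2 lower, beside 29.1% of all genes (14.2% higher and 14.9% lower). The 4 higher members were DEGs, beside 7.18% of all genes (5.05% in that direction), and 7 members had an unadjusted p under 0.05, beside 41.1%. Between Dapa and Case no member was called, and edgeR's quasi-likelihood test called 0 of 14573 genes in all. In that comparison 2 members (Aqp3 and Aqp4) had an unadjusted p under 0.05, beside 12.9% of all genes. DESeq2 called 200 genes there and edgeR's exact test 125, with no member among them. The median log2 fold change of the members was -0.02 in Case against Ctrl, 0.23 in Dapa against Case and 0.66 in Dapa against Ctrl, against 0.03, -0.01 and 0.02 over all genes. Mice of the 2 groups did not overlap for 1 member (Aqp6) in Case against Ctrl, beside 8.43% of all genes (4.97% higher and 3.46% lower). Dapa and Ctrl mice did not overlap for Aqp2 and Aqp6, which were higher, and Aqp7, which was lower, beside 14.5% (9.79% higher and 4.74% lower).

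The set of libraries changed these counts. In the other 10 libraries alone 0 members were called in either comparison with Ctrl by edgeR's quasi-likelihood test, which called 258 of 15202 and 273 of 14863 genes there. An unadjusted p under 0.05 was found for 2 and 3 members, beside 2588 and 2886 of those genes. In the 7 libraries alone, which hold 3 Ctrl and 3 Dapa mice, 7 members were called in Dapa against Ctrl among 3041 of 14654 genes called. Without the 4 Adipoq libraries 1 member, Aqp6, was called in each comparison with Ctrl, among 1002 of 14725 genes called in Case and 1650 of 14702 in Dapa. A term for the 7 libraries left 1 member called in Case against Ctrl, among 1219 of 14582 genes, and 6 in Dapa against Ctrl, among 4391 of 14647. Whether the 7 libraries share a run or a preparation is not given in the sources used here, and it was not tested.

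**Figure D3:**
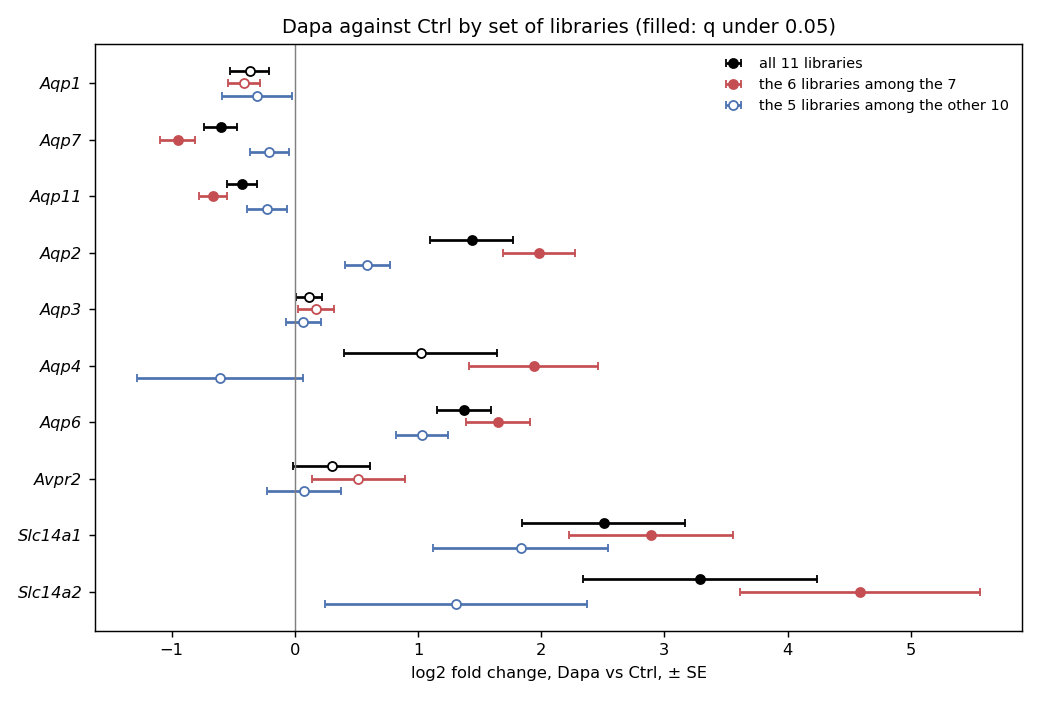
Log2 fold change and SE of each member in Dapa against Ctrl over all 11 libraries (black), over the 6 of them among the 7 libraries named in the text (red) and over the 5 others (blue), filled where q was under 0.05. Aqp6 stays above 1 in all 3 fits, and Aqp4 runs from 1.94 in the red to -0.61 in the blue fit.

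Markers of the 2 collecting duct cell types were read beside Aqp2 and Aqp6. Of 6 principal cell markers 3 were called higher in Case and 5 in Dapa against Ctrl, beside 6.09% and 14.2% of all genes. Kcne1, a potassium channel subunit, had the largest change in Case (log2 fold change 0.82), and Fxyd4, a regulator of the sodium pump, the largest in Dapa (0.94, q = 0.0683, not called). Their sum was 74.4 to 94.1 FPKM in Ctrl, 90.8 to 142 FPKM in Case and 109.6 to 141 FPKM in Dapa. Of 8 intercalated cell markers 2 were called higher in Case and 5 in Dapa against Ctrl, beside the same shares. Slc4a1, the basolateral anion exchanger of acid-secreting cells, which red blood cells also express, had the largest change in both (0.79 and 0.77). Their sum was 101 to 123 FPKM in Ctrl, 124 to 146 FPKM in Case and 144 to 202 FPKM in Dapa. No marker of either list was at 0 in any mouse.

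The ratio of each channel to its cell type's markers was compared with exact two-sided permutation tests, chosen after the data were seen, with adjustment over 6 tests. The log2 ratio of Aqp6 to intercalated cell markers was -3.45 ± 0.357 (SD, n = 5) in Ctrl, -2.38 ± 0.449 (n = 6) in Case and -2.50 ± 0.523 (n = 6) in Dapa. It was higher than in Ctrl by 1.07 in Case (exact p = 0.00866, adjusted p = 0.0519) and by 0.95 in Dapa (exact p = 0.0173, adjusted p = 0.0519), which missed the threshold after adjustment. For Aqp2 and principal cell markers the differences from Ctrl were 0.43 in Case (exact p = 0.0736, adjusted p = 0.110) and 0.86 in Dapa (exact p = 0.0260, adjusted p = 0.0519). Dapa and Case differed by 0.42 for Aqp2 (exact p = 0.253) and by -0.125 for Aqp6 (exact p = 0.673). In each of the 6 tests the groups overlapped.

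**Figure D4:**
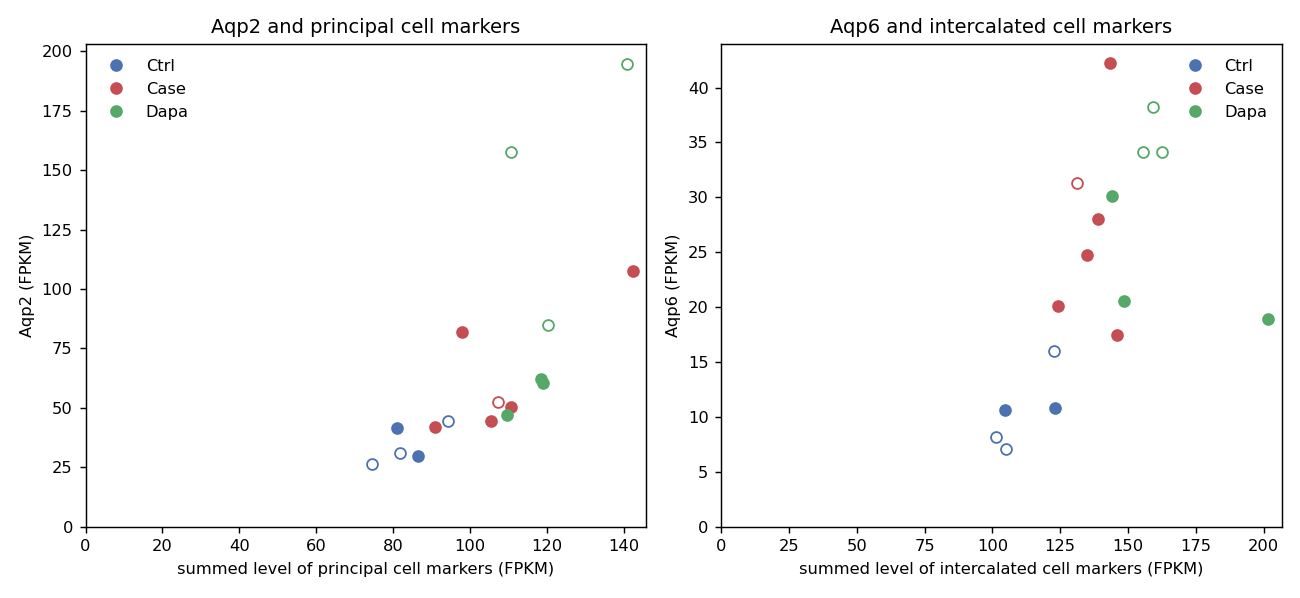
Level of Aqp2 against the summed FPKM of 6 principal cell markers (left) and of Aqp6 against 8 intercalated cell markers (right), 1 point per mouse, for Ctrl (blue), Case (red) and Dapa (green), with the 7 libraries as open points. The intercalated marker sums of Ctrl (up to 123 FPKM) end below those of Case (from 124 FPKM) and Dapa (from 144 FPKM), as Aqp6 does, and Dapa 11 and 12 reach 158 and 195 FPKM of Aqp2.

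Other cell types that a whole kidney sample can hold also differed between libraries. The 6 urothelium markers summed to 0.194 to 29.5 FPKM in Ctrl, 0.756 to 12.8 FPKM in Case and 1.60 to 33.8 FPKM in Dapa, and none of those tested was called. Upk1a had the largest change in Case against Ctrl (log2 fold change -0.59) and Upk1b in Dapa against Ctrl (1.59), both uroplakins. Adipocyte markers summed to 0 to 17.7 FPKM in Ctrl, 0 to 0.154 FPKM in Case and 0 to 6.34 FPKM in Dapa, and passed no filter for a test. Of 4 distal convoluted tubule markers 2 were called higher in Case and 3 in Dapa against Ctrl, beside 6.09% and 14.2% of all genes, led by the calcium-binding protein gene Calb1 (1.55 and 1.62). Their sums were 219.7 to 293 FPKM in Ctrl, 296 to 506 FPKM in Case and 409 to 490.5 FPKM in Dapa. No endothelial marker of 6 was called, with sums of 51.3 to 93.5, 73.0 to 109 and 70.5 to 134 FPKM in the order Ctrl, Case, Dapa, and the largest changes from Ctrl in Plvap in Case (0.38) and Emcn in Dapa (0.51). Of 6 macrophage markers 1, Cd14, was called higher in both (1.41 and 1.04), with sums of 16.0 to 28.3, 17.5 to 88.7 and 18.4 to 35.3 FPKM. Their part in the members' values was not tested.

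The members varied together to different degrees over the 17 mice. Pearson correlations of log2 CPM (counts scaled to the library total, here with TMM factors and a prior count of 2) are given as a description. They are from the same 17 libraries, with group differences included. Aqp2 and Aqp6 correlated at 0.80, Aqp2 and Slc14a1 at 0.86, Aqp6 and Slc14a1 at 0.81, Slc14a1 and Slc14a2 at 0.85, and Aqp4 and Slc14a2 at 0.73. Aqp1 and Aqp7 correlated at 0.66 and Aqp7 and Aqp11 at 0.59, and Aqp11 ran opposite to Aqp2 at -0.81. Aqp3 correlated at 0.36 with Aqp2, 0.09 with Slc14a2, 0.50 with Avpr2, -0.44 with Aqp1 and -0.565 with Aqp7. With group means removed, Aqp2 and Aqp6 correlated at 0.68, Slc14a1 and Slc14a2 at 0.78, Aqp1 and Aqp7 at 0.51, and Aqp7 and Aqp11 at 0.38. The correlation of Aqp1 and Aqp11 went from 0.48 to 0.26 in the same way.

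The genes whose pattern was most like Aqp2, of 13896 with a mean CPM of at least 1, were Plet1, Col4a6 and Anxa2 (r = 0.95 for each). For Aqp1 they were Mettl7b, Slc22a13 and Magt1 (0.84 to 0.87), for Slc14a2 Tnn, Scel and Bst1 (0.95 to 0.96), and for Aqp6 Tacc1, Hoxb9 and Cpne8 (0.94 to 0.96). The search for Aqp6 was added after its values were seen.

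A pair of genes of the loop of Henle and medulla was set beside the urea transporters in every mouse. Slc12a1, the sodium-potassium-chloride cotransporter of the thick ascending limb, correlated with Slc14a2 at 0.90 and with Slc14a1 at 0.90. Slc6a12, the betaine transporter that medullary cells use against high salt, correlated with Slc14a2 at 0.92. The other tonicity genes compared, Slc5a3 and Akr1b3, correlated with Slc14a2 at 0.656 and 0.355. In Case 5, where Slc14a2 had 0 counts, Slc6a12 had 3 counts and Slc12a1 was at 85.7 FPKM. In Case 3, with 970 counts of Slc14a2, Slc6a12 had 198 counts and Slc12a1 was at 344 FPKM. Thick ascending limb markers (Slc12a1, Umod, Cldn16, Ptger3 and Cldn10) summed to 428 to 1473 FPKM in Ctrl, 701 to 2634 FPKM in Case and 1048 to 1754 FPKM in Dapa. The lowest Dapa sum was that of Dapa 11, whose Slc14a2 level (14.3 FPKM) was the second highest of Dapa. None of the 5 was called in Case against Ctrl, beside 13.0% of all genes. In Dapa against Ctrl 1, Ptger3, was called higher, beside 14.2% of all genes called higher. Umod, the gene of uromodulin, had the largest change in Case (log2 fold change 0.75, q = 0.216). How much of each sample came from the medulla was not measured, and its part in the members' values was not tested.

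**Figure D5:**
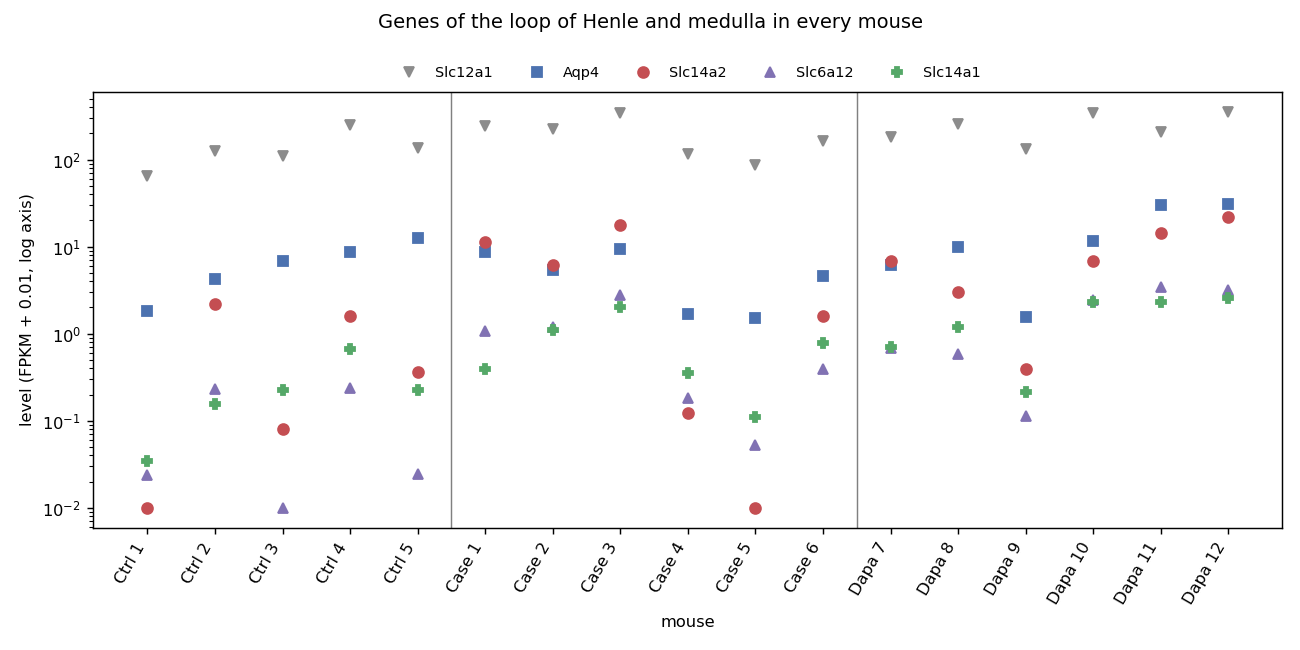
Level in every mouse (FPKM + 0.01, log axis) of Slc14a2, Slc14a1 and Aqp4 beside Slc12a1 and Slc6a12, with grey lines between the groups. Case 5 and Dapa 9 are the lowest of their groups in all 5 genes, and Case 3 is the highest of Case in all 5.

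The pathways around the members were read as lists of genes that are no members. Vasopressin and cAMP signalling, is the route from the V2 receptor to AQP2 in the membrane. Of 19 genes 1 was called in Case against Ctrl, beside 13.0% of all genes, Myo5b, a myosin of vesicle traffic, which fell by 0.42 on the log2 scale (q = 0.0245). In Dapa against Ctrl 2 were called higher and 1 lower, beside 29.1% of all genes: Vamp2, a vesicle fusion protein (0.40, q = 0.00476), Avpr1a, the V1a receptor (0.48, q = 0.0181), and Myo5b (-0.42, q = 0.00793). The list's median log2 fold change was -0.02 and -0.04 in these comparisons, against 0.03 and 0.02 over all genes.

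Prostaglandins and endothelin, which both oppose vasopressin in the collecting duct, had more calls. In Case against Ctrl 4 of 9 tested genes were called, all higher, beside 6.09% of all genes called higher. These were the prostaglandin synthases Ptges (log2 fold change 0.63, q = 0.00234) and Ptgs1 (0.58, q = 0.0206), the endothelin receptor Ednra (0.72, q = 0.0394), and Hpgd (0.67, q = 0.0496), which breaks prostaglandins down. In Dapa against Ctrl 6 of 10 were called, all higher, beside 14.2% of all genes. Ptgs1 (1.08, q = 0.00142), the prostaglandin receptor Ptger3 (1.32, q = 0.0111), endothelin itself (Edn1, 1.06, q = 0.0157) and the receptors Ednrb (0.69, q = 0.0350) and Ednra (0.61, q = 0.0394) were among them. Ptgs2, the inducible cyclooxygenase, rose by 4.02 on the log2 scale (q = 0.00793), with 0 to 7 counts in Ctrl mice and 8 to 142 in Dapa mice, so its fold is uncertain. The median of the list was 0.63 in Case and 0.81 in Dapa against Ctrl.

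Genes of the tonicity response, which load medullary cells with organic osmolytes, had 0 of 9 calls in Case against Ctrl by edgeR's quasi-likelihood test, beside 13.0% of all genes, where Slc6a12 came nearest (log2 fold change 3.15, unadjusted p = 0.00788, q = 0.0555). Against Ctrl, Dapa had 2 of 9 called higher, beside 14.2% of all genes, Slc6a12 (4.03, q = 0.00761) and the amino acid transporter Slc38a2 (0.55, q = 0.0290). Slc6a12 had 0 to 17 counts in Ctrl, 3 to 198 in Case and 7 to 205 in Dapa. In the other 10 libraries alone its Dapa against Ctrl log2 fold change was 1.81 (q = 0.38).

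Of genes for salt transport in the thick ascending limb, which builds the medullary gradient, Bsnd, the gene of barttin, was called higher in Dapa against Ctrl (log2 fold change 0.69, q = 0.00219). Slc12a1, the entry step of that salt, was not called in Case (0.44, q = 0.435) or in Dapa against Ctrl (0.75, q = 0.0789).

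Transcription factors of the collecting duct had 0 of 9 calls in Case against Ctrl by edgeR's quasi-likelihood test, beside 13.0% of all genes, with Gata3 nearest (log2 fold change 0.46, unadjusted p = 0.00685, q = 0.0514). In Dapa against Ctrl 3 of 9 were called higher, beside 14.2% of all genes: Elf5, a factor of principal cells (3.09, q = 0.0183), Gata3 (0.71, q = 0.0223) and Grhl2 (0.79, q = 0.0260). Elf5 had 4 to 23 counts in Ctrl, 5 to 51 in Case and 4 to 258 in Dapa. Of the other aquaporins on a further list, Mip, Aqp5, Aqp8 and Aqp9 were in the table, and only Aqp8 had enough counts to be tested, with no call (log2 fold changes -0.07 to 0.04). Aqp5, which lies between Aqp2 and Aqp6, had 0 to 3 counts in Ctrl, 0 to 3 in Case and 0 to 25 in Dapa.

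In the other 10 libraries alone, with fewer mice in the fit, each call named here from these pathway lists against Ctrl was lost. With each mouse left out, 56 values of the members and these genes together lost a call, 7 of them of members. Without the 4 Adipoq libraries Ptges stayed called in Case, and Ptgs1, Ptgs2, Bsnd and Vamp2 in Dapa against Ctrl.

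Between Dapa and Case no gene of these lists or of the marker lists was called. The genes nearest to a call in each list were Avpr1a (log2 fold change 0.47, unadjusted p = 0.00371, q = 0.228), Bsnd (0.37, unadjusted p = 0.00423, q = 0.232), Foxi1, a factor of intercalated cells (0.66, unadjusted p = 0.00558, q = 0.237), Ptgs1 (0.51, unadjusted p = 0.0149, q = 0.286) and Akr1b3, which makes sorbitol (1.71, unadjusted p = 0.0150, q = 0.286). The members' own values in that comparison ran from -0.39 for Aqp7 to 1.495 for Aqp4. Over the other 10 libraries they ran from -0.54 for Slc14a2 to 0.36 for Aqp4, Aqp7 stood at 0.0037, and only Aqp3 and Aqp4 kept the sign they had over all mice.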

How the data were processed

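The authors aligned the reads of stranded, poly(A)-selected whole kidney libraries to mm10 with HISAT2 and made a read count per gene with Stringtie. The deposited table gives that count and an FPKM value for 22561 genes in each of 17 mice. Recomputing the deposited FPKM from its count, the library's sum and a fixed length per gene left at most 0.0882% of difference, and no TMM factor was needed for it. The 3 genes with entries split over 2 lines were left out, which left 22558. Depth was 13039535 to 17779635 counts per library, and precision at low counts is limited by counting error. Whether the mice of a group were handled separately before sequencing is not given beyond 1 library per mouse, so p-values measure the spread between these libraries.

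Groups were those of the labels. Each comparison was fitted on its 2 groups by edgeR's two-sided quasi-likelihood test (edgeR 4.0.16 in R 4.3.3), after filterByExpr and TMM scaling, with Benjamini-Hochberg adjustment over all genes tested. The fit was first tested on simulated data. Python 3.11.15 with scipy 1.17.1 gave the exact permutation tests. Other fits used DESeq2 1.42.0, the exact test of edgeR, median ratio or upper quartile scaling, every gene unfiltered, genes with 10 or more counts in each mouse, all 3 groups in one fit, limma 3.58.1 on log2(FPKM + 1) and log2(FPKM + 0.1), a term for the 7 libraries, a replicate block, and each mouse left out. The fits on the 7 or the other 10 libraries and without the Adipoq libraries, and the marker ratios, were added after the data were seen.

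Members, gene lists and markers were chosen with earlier results of these data known. All members are named, and of each list every called gene, to at most 5 by smallest q and comparison (Ednra in Dapa against Ctrl is named beyond that), else the gene with the smallest p. Of a marker list the gene of largest change is named. Promoter sequences are from RefSeq, GRCm38.p6. The counts of the list of thick ascending limb salt transport genes, and some of its genes, are not reported here.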

Additional observations from a re-analysis of the deposited data

Results flagged for a closer look

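Among 30 groups of values (10 members in 3 groups), 3 had a mouse whose distance from its nearest neighbour was a large part of the group's whole range, by Dixon's criterion at 95%. Chance gives about 1 in 20 such groups. Case 1 had 302 FPKM of Aqp1, the highest of Case, and it is one of the 7 libraries. Dapa 12, also one of the 7, had 58.4 FPKM of Aqp3 and 4.68 FPKM of Avpr2, in both the highest of Dapa. None of these members was called in any comparison with all mice in the fit.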

How the results depend on the processing

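Genes called in Case against Ctrl were 1895, and 1219 with a term for the 7 libraries, 707 with a replicate block, 258 in the other 10 libraries alone, 1002 without the Adipoq libraries, and 1002 to 2154 with each mouse left out. The 2 members called there became 1 with all 3 groups in one fit, with the term, with the replicate block and without the Adipoq libraries, 0 in the other 10 libraries, and 1 to 3 with each mouse left out. Ctrl and Case share the numbers 1 to 5, but same-numbered mice did not deviate together (r -0.0586 to -0.0134 over 5 pairs, and 0 of 5 Ctrl mice correlated best with the Case mouse of their number), so the number pairs nothing. Genes called between Dapa and Case were 0, and 200 with DESeq2, 125 with the exact test, 5 with all 3 groups in one fit and 0 to 7 with each mouse left out. Genes called in Dapa against Ctrl were 4260, and 273 in the other 10 libraries, 1650 without the Adipoq libraries. The 6 members called there became 0 and 1 in those fits, 4 with all 3 groups in one fit (Aqp11 and Slc14a2 lost) and 5 with limma on log2(FPKM + 1) or log2(FPKM + 0.1) (Aqp11 lost).

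Directions that turned were all of uncalled values. In the other 10 libraries alone the Dapa against Case log2 fold changes were 0.025 for Aqp1, -0.19 for Aqp2, -0.19 for Aqp6, 0.0037 for Aqp7, 0.042 for Aqp11, -0.31 for Avpr2, -0.31 for Slc14a1 and -0.54 for Slc14a2, and the Dapa against Ctrl value of Aqp4 was -0.61. With the term for the 7 libraries the Dapa against Case values were -0.10 for Aqp6, -0.0128 for Avpr2 and -0.30 for Slc14a2. With each mouse left out, Dapa against Case ran from -0.17 to 0.0203 for Aqp1, -0.0111 to 0.23 for Aqp6 and -0.12 to 0.47 for Avpr2, and Avpr2 ran from -0.17 to 0.30 in Case and from -0.0121 to 0.50 in Dapa against Ctrl. Over the other fits 340 member values kept their direction and side of the threshold, 21 lost a call and 1 gained one, and with each mouse left out 323 kept both, 7 lost a call and 2 gained one. With at least 10 counts in each mouse Slc14a1 and Slc14a2 were not tested. The cause was not tested. Depth limits Slc14a1 and Slc14a2 most, with counts down to 2 and 0.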
